A study of Mus musculus with 2 samples.

Results

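The genes described here are 43 genes used as markers of macrophages and granulocytes, the phagocytes of the innate immune system, in the pancreas of newborn mice with and without a mutant Glis3 gene. A probe belonged to the set when its RefSeq accession, or the current or older gene symbol in its description, mapped to a gene of a fixed list. Of 41174 probes on the array, 60 did so, and 59 of them were well above background by the scanner software's own criterion. They read 42 of the 43 genes. The remaining gene, Mpeg1, had no probe that mapped by this rule. Over the whole array, 16535 named genes were well above background and form the comparison for every share given here.

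Macrophages take up dying cells, particles and microbes and break them down in lysosomes. They live in most tissues, the pancreas included, where they settle before birth and depend on the growth factor receptor Csf1r. Neutrophil granulocytes circulate in blood and carry preformed granules, whose proteins are mostly transcribed while the cells mature in the marrow or, around birth, in the liver and spleen.

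RNA came from the pancreas of Glis3zf/zf pups, which the sample titles call Glis3KO, and from wild-type pups, at postnatal day 3. Glis3 encodes a zinc finger transcription factor, and the series addressed its role in the formation of insulin-producing beta cells. Each genotype was a pool of RNA from 2 pups, and the pools were hybridised against each other on 2 arrays, once in each orientation of the Cy3 and Cy5 dyes. The arrays repeat the same RNA, so each genotype has 1 sample, no test was possible, and the spread given below is technical. Each ratio is the log2 of the mutant signal divided by the wild-type signal, so a positive value is higher in the mutant pool. The error of a mean ratio, written after ±, is the distance from the mean to the value of either array, with n = 2 arrays. The first array is the one with the mutant in Cy5, and the second array had the mutant in Cy3. Signals are normalised array signals in arbitrary units. They were compared between pools for a probe, or for the sum over a list of genes, never between probes. Such a sum is weighted towards the brightest probes.

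The median raw signal lay between 207 and 265 per channel, the median local background between 46.5 and 50, and 94.0% to 96.8% of spots passed the software's test against background. The technical SD of a mean ratio was 0.08 over the genes not called by the rule of size given below. Over all genes the median ratio was 0.004, and 94.7% of genes lay within 0.3 of 0. The single Glis3 probe gave -0.02 and 0.01 on the arrays. Where it lies relative to the mutated stretch is unknown, so it does not check the labels. Of 18 acinar genes, which mark the enzyme-producing cells of the pancreas, 17 were well above background.

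The lysozyme genes had the highest ratios of the set after Ctss and are closely similar neighbours, so the stretch in front of each is shown. Lyz1 and Lyz2 lie side by side on the minus strand of chromosome 10 in mouse build GRCm38.p6, and both sequences are RefSeq's 250 bases before the annotated start, written 5′ to 3′ on the gene's strand. Capitals mark ACTTCCT, the reverse complement of AGGAAGT, a sequence of the kind bound by ETS factors such as PU.1, the product of the member Spi1. The motif was chosen after the sequences had been seen.
Lyz1, chr10:117292869-117293118: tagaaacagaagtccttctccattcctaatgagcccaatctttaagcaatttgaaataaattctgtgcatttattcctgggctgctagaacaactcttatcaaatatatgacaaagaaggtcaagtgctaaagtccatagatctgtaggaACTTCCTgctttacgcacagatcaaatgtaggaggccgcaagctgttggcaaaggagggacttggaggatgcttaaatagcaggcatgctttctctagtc
Lyz2, chr10:117282273-117282522: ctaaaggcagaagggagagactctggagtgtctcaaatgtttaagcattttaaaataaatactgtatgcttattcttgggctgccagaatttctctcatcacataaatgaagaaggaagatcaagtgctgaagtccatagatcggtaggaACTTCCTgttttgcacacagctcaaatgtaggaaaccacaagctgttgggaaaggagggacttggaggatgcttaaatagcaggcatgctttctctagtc
The sequences are identical at 205 of 260 aligned columns (78.85%) and at 92 of the 100 bases next to the start. In each, the motif occurs 1 time, and its first base lies 100 bases before the start. Counting both strands, AGGAAGT occurs in 7.686% of the 32851 windows of 250 bases in the RefSeq table. Of the members, 34 had a window and 11 of those held it, or 32.35%. The window of Ctss, the member with the highest ratio, did not. The 32.35% counts genes with the motif in any window, whereas the 7.686% counts single windows. It also includes Lyz1 and Lyz2, whose sequences were seen before the motif was chosen, so the percentages are not like for like. The 11 are C1qb, C1qc, Elane, Fcgr1, Lyz1, Lyz2, Mmp8, Mpo, Mrc1, Ptprc and S100a8. The ratios of these 11 ran from the highest of the lysozymes to values below 0 for Mrc1 and Mmp8. A match of letters is a description of the window and shows no binding.

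Lysozyme RNA was 1.8-fold higher in the mutant pool. In bulk tissue such as this, more cells of a type and more RNA per cell cannot be told apart. Lyz2, the lysozyme of macrophages and neutrophils, was read by 2 probes. The first probe (NM_017372; files' coordinates chromosome 10, 116966846 to 116966905) had mutant and wild-type signals of 17416 and 9156 on the first array and of 14311 and 8269 on the second. The mutant pool was above the wild type on each array, without overlap, and the ratios were 0.93 and 0.79, a mean of 0.86 ± 0.07 or 1.81-fold. Among all 16535 genes it ranked 50 from the highest. The second Lyz2 probe, whose first base lies 4725 bp away (chromosome 10, 116971571 to 116971630), gave 244 for mutant and 178 for wild type on the first array and 208 and 147 on the second. Its pools did not overlap either, but its mean ratio was smaller, 0.48 ± 0.02 or 1.39-fold. The scanner software's own ratios, made without the offset that shrinks the ratios of dim probes here, were 0.63 and 0.73 for the second probe and 0.92 and 0.80 for the first.

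Lyz1, which encodes the lysozyme of intestinal Paneth cells and is also found in some myeloid cells, gave nearly the same ratio. Its probe (NM_013590; chromosome 10, 116977650 to 116977709) had mutant and wild-type signals of 3792 and 2157 on the first array and of 3308 and 1800 on the second. The pools did not overlap, and the ratios of 0.81 and 0.88 gave a mean of 0.85 ± 0.03, 1.80-fold and rank 51. The file lists the accession of Lyz2 for this probe as well, the only such case among the 60 member probes, so the RNA of both genes cannot be told apart by it. The build behind the probe coordinates is not given in the sources used. Of 10 genes listed for Paneth cells and intestinal epithelium, Lyz1 included, 6 were well above background, with a median ratio of 0.03. Itln1, Cdx2 and Cdh17 were among those not well above background, and Vil1, an intestinal brush border gene, was lowest at -0.18.

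**Figure D1:**
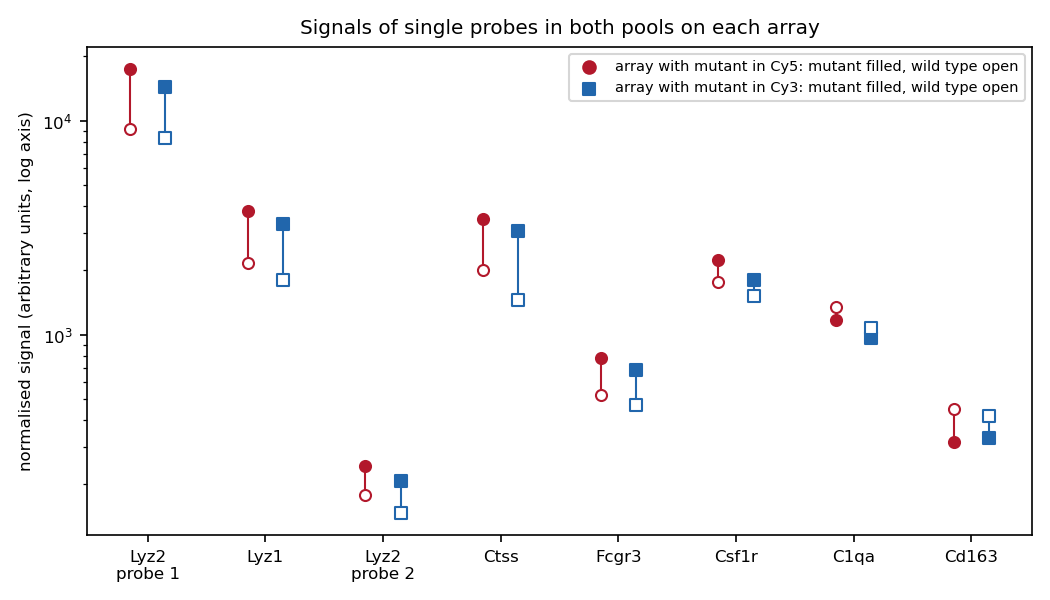
Normalised signal in arbitrary units on a log axis, for single probes of 7 member genes in the mutant pool (filled) and the wild-type pool (open) on each array. The lysozyme, Ctss, Fcgr3 and Csf1r probes are higher in the mutant on both arrays and those of C1qa and Cd163 lower, and heights should not be compared between probes.

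Of both lysosomal protease genes, Ctss passed the smaller rule given below and Lgmn did not. Ctss, the gene for cathepsin S, which trims the invariant chain for antigen presentation, had mutant and wild-type signals of 3480 and 2007 on the first array and of 3055 and 1452 on the second. The mutant was above the wild type on both arrays without overlap. Its mean ratio of 0.93 ± 0.14, or 1.91-fold, was the highest of the set and ranked 42 among all genes. Lgmn, the gene for legumain, an asparagine-specific endopeptidase of the lysosome, had signals of 1197 and 925 on the first array and of 1041 and 860 on the other, again without overlap. Its mean ratio was 0.32 ± 0.05.

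A gene was called by a rule of size when its mean ratio reached 2-fold and neither array fell short of 1.5-fold in that direction. No member met it, where 0.23% of all genes were higher and 0.151% lower. A smaller rule asked for a ratio of 0.32 or more, in either direction but the same one, on both arrays. By it 6 of 42 members, or 14.3%, were higher in the mutant, against 1.23% of all genes. These were Lyz1, Lyz2, Ctss, Fcgr3, Trem2 and Clec4d. In the other direction 1 member, Cd163, was lower, or 2.38%, against 1.65% of all genes.

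Over all 42 members, those just named included, signs were counted next. Above 0 on both arrays were 28 members, or 66.7%, against 32.5% of all genes, and below 0 on both were 6, or 14.3%, against 30.5%. The arrays gave opposite signs for the other 8. The median ratio of the 42 members was 0.16, and 6.51% of all genes had a ratio above that value. Without Lyz1, Lyz2 and Ctss the median was 0.15, and without the 9 granulocyte genes it was 0.20. Above 0.2 lay 18 members, where 4.45% of all genes lay. Within 0.1 of 0 lay 13 members, but no share of all genes was taken for that band, so the count has no comparison. Normalised signals in the mutant exceeded every wild-type signal for 19 members, against 8.28% of all genes, and 4 members showed the reverse, against 11.4%.

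**Figure D2:**
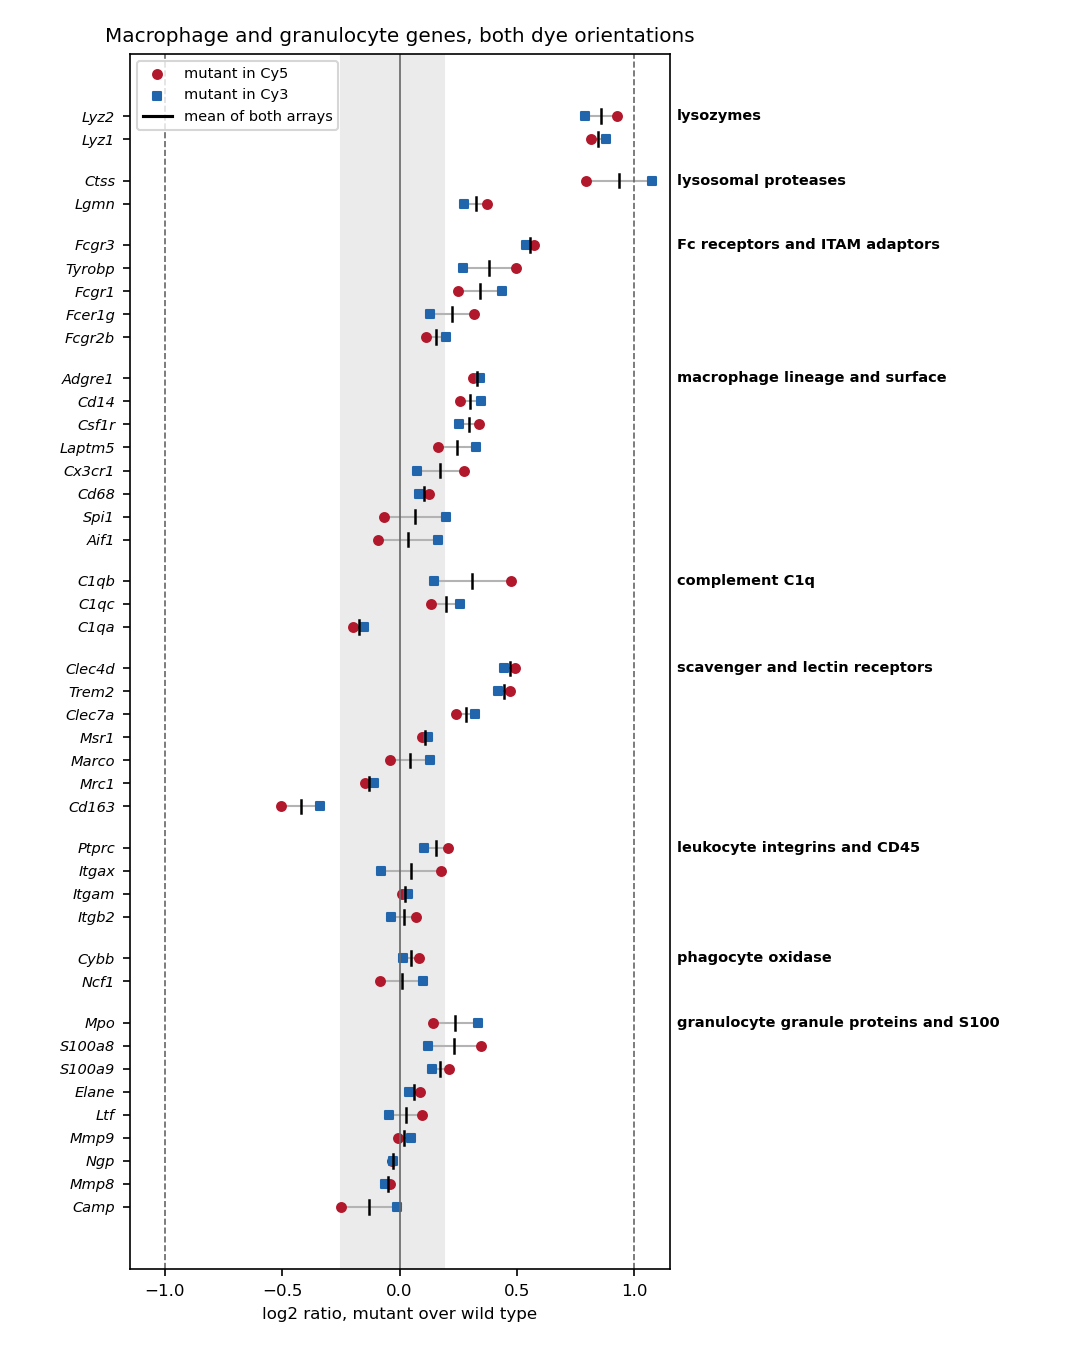
Log2 ratio of mutant over wild type for the 42 measured members by role, as circles (mutant in Cy5), squares (mutant in Cy3) and bars (mean of both). The grey band spans the 5th to 95th percentile of all genes, -0.25 to 0.19, and dashed lines mark 2-fold. Ctss and the lysozymes stand apart on the right and Cd163 on the left.

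Fc receptors and their signalling adaptors were above 0 on both arrays for all 5 members, against 32.5% of all genes, with a median of 0.34. Upward, 1 of 5 passed the smaller rule, against 1.23% of all genes. Fcgr3, a low-affinity activating receptor for IgG, had mutant and wild-type signals of 778 and 523 on the first array and of 683 and 471 on the second. The pools did not overlap, with a mean ratio of 0.55 ± 0.02 or 1.47-fold, although the other probe of the gene gave 0.24. Tyrobp, the ITAM adaptor DAP12 that transmits signals of Trem2 and related receptors, had signals of 1288 and 914 on the first array and of 978 and 811 on the other. Its mean was 0.38 ± 0.11, the pools did not overlap, and the ratio was larger on the first array. Fcgr1, the high-affinity IgG receptor, had signals of 793 and 667 and of 705 and 521, with a mean ratio of 0.34 ± 0.09 and no overlap. A probe outside the naming rule, described as this receptor, gave 0.16. Fcer1g, the shared gamma chain that activating Fc receptors need for surface display, had a mean of 0.22. The lowest was Fcgr2b, the inhibitory IgG receptor, with signals of 677 and 627 on the first array and of 420 and 367 on the second. These overlap between the pools across arrays, and its mean was 0.15 ± 0.04, while another of its probes gave 0.38.

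Genes that define the macrophage lineage or its surface had smaller ratios. The 8 measured genes had a median of 0.21, and 6 were above 0 on both arrays, against 32.5% of all genes. Of the 8, 0 passed the smaller rule, which 1.23% of all genes met upward and 1.65% downward. Adgre1, the gene for the F4/80 antigen of mouse macrophages, had mutant and wild-type signals of 1690 and 1360 on the first array and of 1348 and 1064 on the second. Each array showed the mutant higher, but the wild-type signal of the first array was above the mutant signal of the second. The mean was 0.33 ± 0.01, and another Adgre1 probe gave 0.14. Csf1r, the receptor through which macrophages survive, had signals of 2242 and 1773 and of 1811 and 1520, with a mean of 0.30 ± 0.04 and no overlap. Its other 2 probes gave 0.32 and -0.01. Cd14, the co-receptor for bacterial lipopolysaccharide, had a mean of 0.30 ± 0.04. Laptm5, a lysosomal membrane protein gene of blood cells, had 0.24, Cx3cr1, the fractalkine receptor gene, 0.17, and Cd68, a lysosomal glycoprotein gene, 0.10. For the transcription factor gene Spi1 and for Aif1, which encodes the actin-binding protein IBA1, the arrays disagreed in sign. Spi1 was dim, with raw signals from 122 to 166. Aif1 had signals of 671 and 716 on the first array and of 615 and 548 on the other, with a mean of 0.04 ± 0.13 that fell to -0.01 when arrays were centred on their median in place of loess.

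Complement C1q is built from chains of 3 genes, and macrophages are a main source of it. C1qb had mutant and wild-type signals of 920 and 661 on the first array and of 818 and 740 on the second. The pools did not overlap, and the ratios of 0.48 and 0.14 gave a mean of 0.31 ± 0.17, the widest gap between arrays in the set. C1qc gave 0.20 ± 0.06. C1qa lay the other way, with 1175 and 1347 on the first array and 965 and 1071 on the other, a mean of -0.17 ± 0.02. The mutant was below the wild type for C1qa on each array, although the signals overlap across arrays. The C1q genes, which lie next to each other in the genome, did not share a direction on these arrays.

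Scavenger and lectin receptors held both directions. Of the 7, 2 were higher and 1 lower by the smaller rule, against 1.23% and 1.65% of all genes, and the median was 0.11. Clec4d, a C-type lectin of myeloid cells, had mutant and wild-type signals of 254 and 181 on the first array and of 202 and 148 on the second. The pools did not overlap, and the mean ratio was 0.47 ± 0.02, or 1.38-fold. Its probe was fairly dim, with raw signals from 150 to 231. With the software's own ratios the mean was 0.67, the largest shift of any member under that alternative. Trem2, a lipid receptor that signals through Tyrobp, had 745 and 538 on the first array and 699 and 522 on the other, a mean of 0.44 ± 0.03 or 1.36-fold, and its other probe gave 0.37. Clec7a, the beta-glucan receptor dectin-1, had a mean of 0.28.

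Cd163, the haemoglobin scavenger receptor of resident macrophages, was the member with the lowest ratio. Mutant and wild-type signals were 317 and 449 on the first array and 329 and 416 on the second. The mutant was lower on each array without overlap, with ratios of -0.50 and -0.34, a mean of -0.42 ± 0.08 or 1.34-fold lower, and rank 217 from the lowest of all genes. Mrc1, the mannose receptor CD206, had 602 and 668 on the first array and 561 and 605 on the other, a mean of -0.13 ± 0.02. The scavenger receptor genes Msr1 and Marco gave 0.11 and 0.04, the latter with opposite signs on the arrays and below 0 under median centring.

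Of the leukocyte integrins, CD45 and the phagocyte oxidase, 0 of 6 genes passed the smaller rule, which 1.23% of all genes met upward and 1.65% downward. Of the 6, 5 lay within 0.1 of 0, again without a share of all genes for that band. The exception was Ptprc. Ptprc, which encodes the pan-leukocyte phosphatase CD45, had signals of 168 and 146 on the first array and of 162 and 151 on the other, with a mean of 0.16 ± 0.05. Itgam, Itgax and Itgb2, which encode the chains of the leukocyte integrins CD11b and CD11c with CD18, had means of 0.02, 0.05 and 0.02, and Itgb2 turned negative under median centring. The raw signals of Itgam ran from 85.8 to 122, close to those of the negative control spots, whose 95th percentile lay between 60.8 and 76.2. Itgax and Ncf1 were also dim, with raw signals from 131 to 155 and from 118 to 181. With the second array alone, the median of the integrin and CD45 genes was -0.001, against 0.04 over both arrays. Itgb2 had signals of 476 and 453 and of 389 and 400, so its arrays disagreed in sign. Cybb, the catalytic subunit of the phagocyte oxidase, had signals of 193 and 182 and of 145 and 144, a mean of 0.05 ± 0.03. Its other probe gave 0.49 and 0.36 on the arrays, a mean of 0.43, and would pass the smaller rule. Both probes were dim, so whether Cybb passes depends on the probe used. Ncf1, the p47phox subunit, had 145 and 153 on the first array and 125 and 117 on the other, a mean of 0.01 ± 0.09.

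**Figure D3:**
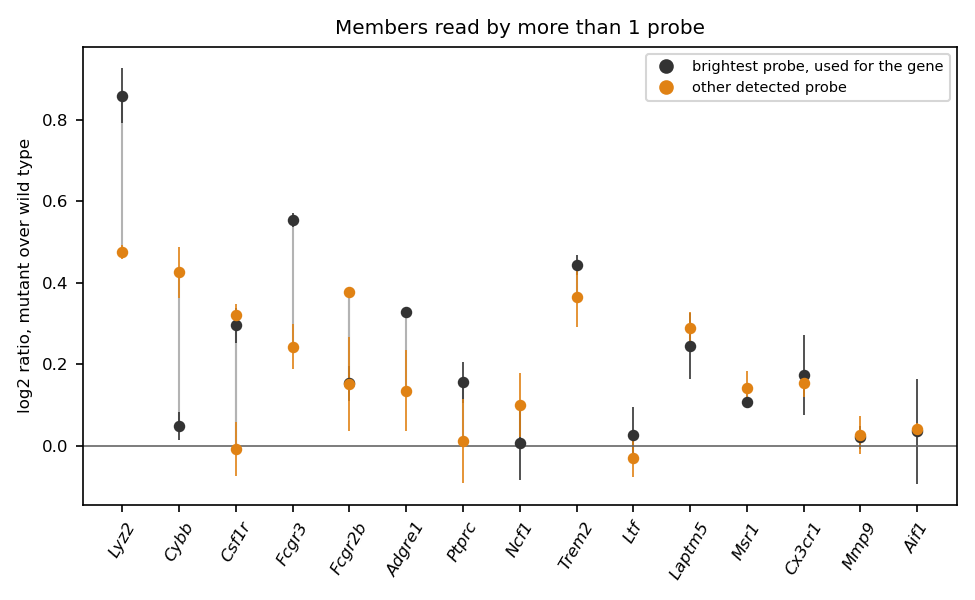
Mean log2 ratio of mutant over wild type for each detected probe of the 15 members read by more than 1 probe, with vertical bars that end at the values of the single arrays. Black points are the brightest probe, used for the gene, and orange points the others, and Lyz2 and Cybb have the widest gaps, both 0.38.

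Of those 15 members, 13 had probes of a single sign and 10 had probes within 0.2 of each other. Gaps above that were 0.38 for Lyz2 and for Cybb, 0.33 for Csf1r, 0.31 for Fcgr3 and 0.22 for Fcgr2b. The choice of probe therefore moved these 5 genes by more than the technical SD of 0.08. The smaller gaps of Adgre1 (0.19), Ptprc (0.14) and Ncf1 (0.09) were also above that SD. That SD is for a single mean ratio, whereas a gap carries the error of both probes. The Ncf1 gap therefore lies near the technical spread. By the naming rule, 27 members had only 1 detected probe.

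Granulocyte genes lay near 0 as a group. The 9 genes had a median of 0.03, with 4 above 0 and 3 below 0 on both arrays, against 32.5% and 30.5% of all genes. Of the 9, 0 passed the smaller rule, which 1.23% of all genes met upward and 1.65% downward. At such shares a list this short would most often hold 0. Mpo, the myeloperoxidase of primary granules, had mutant and wild-type signals of 320 and 290 on the first array and of 299 and 237 on the second, a mean of 0.24 ± 0.10. The mutant was above the wild type throughout, without overlap. A probe outside the naming rule, described as the myeloperoxidase gene, gave 0.05. S100a8 and S100a9, whose products form calprotectin in neutrophils and monocytes, had means of 0.23 ± 0.11 and 0.17 ± 0.04. Camp, the cathelicidin gene of secondary granules, had 116 and 138 on the first array and 120 and 121 on the other, a mean of -0.13 ± 0.12. Its difference was thus nearly all on the first array.

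Several granule genes were barely measured. The raw signals of Ngp ran from 81.8 to 112, those of Mmp8 from 83.5 to 112 and those of Camp from 108 to 165, against the same range of negative controls. The signals of these genes thus lay close to those of the negative controls, and the Ngp and Mmp8 means of -0.03 and -0.05 changed sign under median centring. Elane, the neutrophil elastase gene, Ltf, the lactoferrin gene, and Mmp9, the gelatinase gene, gave 0.06, 0.03 and 0.02, and Ltf was -0.02 under median centring. Macrophage markers such as Csf1r, Adgre1 and the C1q genes were thus clearly measured in both pools, and the granule genes Ngp, Mmp8 and Camp only weakly.

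Other genes of the same pathways mostly lay nearer 0 than the lysozymes. Of 5 further subunits and partners of the phagocyte oxidase, 4 were above 0 on both arrays, against 32.5% of all genes. Their median was 0.27. Ncf4, the p40phox gene, was highest at 0.30, and Rac1, a GTPase gene of nearly all cells, lowest at -0.16. Of 11 signalling genes downstream of Fc receptors and ITAM adaptors, 0 passed the smaller rule, against 1.23% of all genes upward and 1.65% downward. Their median was 0.05, from 0.26 for the exchange factor gene Vav1 to -0.16 for the kinase gene Lyn. Growth factors and receptors of myeloid cells had a median of 0.01 over 10 measured genes, from 0.11 for Flt3 to -0.16 for Csf2ra. Of these, 0 passed, against the same shares of all genes.

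Among 29 other macrophage genes the median was 0.03, with 1 higher and 4 lower by the smaller rule, against 1.23% and 1.65% of all genes. Cd209f, a C-type lectin gene related to DC-SIGN, had mutant and wild-type signals of 200 and 387 on the first array and of 178 and 359 on the second. Its pools did not overlap, with a mean of -0.98 ± 0.03 or 1.97-fold lower and rank 31 from the lowest. The other 3 were Lyve1, a hyaluronan receptor gene also found in lymphatic vessels, at -0.64, the ficolin gene Fcna at -0.63, and Pf4, which platelets also express, at -0.41. The higher gene was Ccr2, the chemokine receptor gene of recruited monocytes, at 0.37 ± 0.04. Its probe was dim, with raw signals from 94.9 to 128, close to those of the negative controls. Other genes of resident macrophages in the list did not lie so low: Folr2 gave -0.14, Timd4 0.08, Vsig4 0.08, Stab1 0.10 and F13a1 0.18. These 5, and Lyve1 and Fcna, were chosen after their values had been seen.

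Of 12 further granulocyte genes 1 was higher by the smaller rule, against 1.23% of all genes. It was the haptoglobin gene Hp at 0.49, which liver and fat also express, and the lowest was Anxa1 at -0.18.

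Of 18 lysosomal genes that most cell types express, 4 were higher by the smaller rule, which 1.23% of all genes met, and 14 passed in neither direction. Above 0 on both arrays were 17, against 32.5% of all genes, and 0 were below, with a median of 0.22. Those that passed were the cathepsin genes Ctsl at 0.54 and Ctsb at 0.45, Gpnmb at 0.43 and the cholesterol carrier gene Npc2 at 0.36. Lamp1 was lowest at 0.04. Summed over this list, mutant and wild-type signals were 82860 and 66039 on the first array and 74008 and 57307 on the second. Summed over the 42 members they were 52115 and 37181 on the first array and 44307 and 32373 on the second. Much of that difference came from a few bright probes. Without Lyz1, Lyz2 and Ctss the sums were 27427 and 23860 on the first array and 23632 and 20851 on the second. How far lysosomal genes of other cells enter the ratios of Ctss and Lgmn was not tested.

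**Figure D4:**
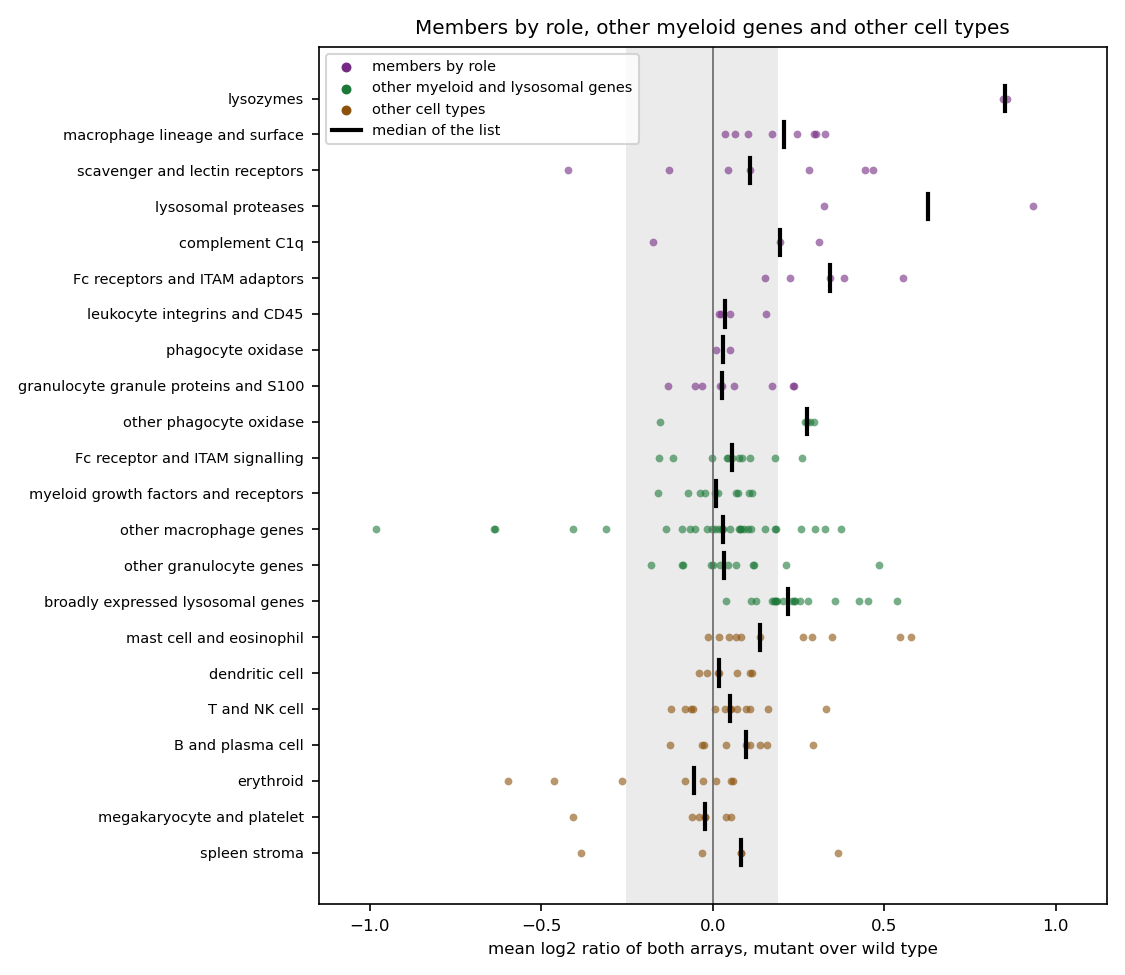
Mean log2 ratio of mutant over wild type for each gene of the lists by role (purple), of other myeloid and lysosomal genes (green) and of other cell types (brown), with black bars at list medians. The grey band is the 5th to 95th percentile of all genes, and lysozymes, lysosomal proteases and Fc receptors have the highest medians of the member lists. The lists of skeletal muscle, acinar, Paneth and intestinal, and transcription factor genes are not drawn.

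Markers of other cell types differed from list to list in size and direction. The 18 measured skeletal muscle genes form a list drawn up from rises already known on these arrays. Of them, 12 were higher by the rule of size and 15 by the smaller rule, against 0.23% and 1.23% of all genes. Their median was 1.69, from 4.46 for Myl1 to 0.10 for Mb. Summed over the list, mutant and wild-type signals were 28474 and 4455 on the first array and 24748 and 3904 on the second. The part of muscle tissue in the member ratios was not tested.

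Of 11 mast cell and eosinophil genes, 3 were higher by the smaller rule, against 1.23% of all genes. These were Cma1 at 0.58 and Cpa3 at 0.55, which encode mast cell proteases, and Hdc at 0.35. In this list 9 were above 0 on both arrays, against 32.5% of all genes, and Fcer1a was lowest at -0.01. Summed over the list, mutant and wild-type signals were 8325 and 6307 on the first array and 6639 and 5424 on the second. Erythroid genes went the other way for haemoglobin, with Hbb-bt at -0.60 and Hba-a1 at -0.46 among 8 measured genes whose median was -0.05 and whose highest was Epor at 0.06. Summed erythroid signals were 28436 and 41171 on the first array and 25288 and 37214 on the second, the mutant again first. Dendritic cell genes had a median of 0.02, from 0.11 for Flt3 to -0.04 for Xcr1, and T and NK cell genes one of 0.05, from 0.33 for Cd3e to -0.12 for Prf1. The median was 0.10 for B and plasma cell genes, from 0.29 for Cd79b to -0.12 for Ms4a1, and -0.02 for megakaryocyte and platelet genes, from 0.05 for Gp9 to -0.41 for Pf4. Of the 17 acinar genes, 9 had a saturated probe and give no usable ratio. The other 8 had a median of -0.14, with 3 above and 4 below 0 on both arrays, against 32.5% and 30.5% of all genes. They ran from 1.93 for Gp2, a zymogen granule protein gene, to -1.11 for the chymotrypsin-like gene Ctrl. For 5 genes of spleen stroma, an organ next to the pancreas, the median was 0.08, from 0.37 for Cxcl13 to -0.38 for Tlx1. The part of any of these cells in the member ratios was not tested.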

How the data were processed

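Per the file headers, each deposited array file gives 2 unnormalised linear values per spot and channel, a mean intensity and a local background intensity (the median). Per the file headers, it also gives the log10 ratio (Cy5 to Cy3) that the scanner software made after subtracting background and normalising the dyes. A deposited table of the series holds log2 ratios, and 41174 of its 41185 rows matched a probe. Its values equalled the software's ratios, turned to mutant over wild type, to 0.002 log2 in 99.985% and 99.983% of probes, with a median of 0 in each column, which settled its scale, centring and direction. Per the labels, Feature Extraction 7.5 and Rosetta Resolver 6.0 were used, while the file headers record version 8.5.1.1, and which of them made the values is not settled. Per the labels, 500 ng of RNA was amplified, and 750 ng of each labelled product was hybridised for 17 hours.

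Here the intensities were corrected with limma 3.58.1 (R 4.3.3, data.table package, version 1.17.8) by normexp with an offset of 50, then by within-array loess (weight 0 for control spots), and turned to mutant over wild type. Outlier spots were left out, 15 and 53 on the arrays, and spots of a probe were averaged. The brightest unsaturated probe stood for its gene. Probes were named through RefSeq's table for GRCm38.p6, used for names only, 22072 by accession, 142 by another accession, 657 by description symbol and 529 by an older symbol, leaving 17774 unnamed. No member probe was saturated or an outlier. Later steps used Python 3.11.15, numpy 2.4.6, pandas 2.3.3 and matplotlib 3.10.9, and the steps were tested on simulated data. The number of arrays limits the precision.

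Signals were given for every lysozyme probe, the 10 members with the largest ratios, and the highest and lowest member of each role, and for pathway and cell lists the highest and lowest gene. Other genes were chosen after their values were seen. The members and all lists were chosen with earlier results of these data known. Alternatives were the software's ratios, the deposited table, other background and centring settings, other filters on dim probes, the median over probes and each array alone. Of the pathway lists, that of transcription factor genes is not reported here.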

Additional observations from a re-analysis of the deposited data

How the results depend on the processing

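Of the list medians of the members, the one for integrins and CD45 changed sign, from 0.04 to -0.001 with the second array alone (mutant in Cy3), and the others kept theirs under each alternative. No member past the smaller rule changed sign, and the 6 higher members and the 1 lower member passed that rule under each of the 10 alternatives. Not all of these could have changed a call. The rule asks for both arrays, so passing on either array alone was fixed in advance. The deposited table repeats the software's ratios, and the filters on dim probes moved no member. The second array alone put 1 member, Ctss, past the rule of size. The causes of the shifts below were not tested. With the software's ratios and with the deposited table, 44 genes were lower by the rule of size and 437 by the smaller rule, and the medians were 0.20 for the members, 0.24 for lineage genes, 0.19 for scavenger receptors and 0.21 for C1q. With a normexp offset of 0, 42 genes were lower by the rule of size and the medians were 0.19, 0.24, 0.17 and 0.21 in that order. With median centring in place of loess, 3 members were below 0 on both arrays, and the medians were 0.11 for the members, 0.79 for lysozymes, 0.17 for lineage genes, 0.56 for lysosomal proteases, 0.12 for C1q and 0.29 for Fc receptors. It also moved the share of higher genes among those past the smaller rule from 42.8% to 27.8%, and 6 of 42 members, Itgb2, Ngp, Ltf, Mmp8, Aif1 and Marco, changed sign. With the median over detected probes, the medians were 0.18 for the members, 0.76 for lysozymes, 0.20 for lineage genes and 0.15 for the oxidase. With the first array alone (mutant in Cy5), 449 genes were higher and 814 lower by the smaller rule, 11 members were higher, and the medians were 0.13 for C1q and 0.085 for granulocyte genes. With the second array alone, 319 genes were higher and 431 lower, 12 members were higher, and the medians were 0.13 for the members, 0.22 for lineage genes, 0.14 for C1q and 0.27 for Fc receptors.

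No paired analysis was possible because each genotype has 1 pool and no test was made. Leaving out an array leaves 1 reading of each pool, and the values above for each array alone are that check. Pups were not measured singly, so no spread between animals was available. Dim probes such as those of Ngp, Mmp8, Camp, Itgam, Itgax, Ncf1, Spi1, Msr1 and Ccr2 limit what can be said of those genes.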
